A study of Neurospora crassa with 10 samples.

Results

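The cytoplasmic ribosomal protein (*crp*) genes of *Neurospora crassa* were followed through a light course, gene by gene and with the replicates kept apart. They were the genes whose symbol begins with *crp-* in the study's list of genes ordered by dark level, matched to the deposited values by NCU locus. This gave 74 of 9728 genes. All 74 were in the files, and all 74 passed the filter on low values, together with 7614 other genes. The filter asked for a mean FPKM (the usual unit, fragments relative to the length of the transcript and to all mapped fragments) above 1 at 1 or more time points. FPKM is a value per transcript length, which allows a rough comparison of levels between genes. How far other properties of a gene affect its value was not tested. By the study's annotation 39 of the 74 encode proteins of the large (60S) subunit and 22 proteins of the small (40S) subunit, and for 13 no subunit is stated. Membership used no light sample, but it did use the dark level, because only the upper part of the ordered list was available. The lowest gene inside it was *crp-75*, at 127 and 376 FPKM in the dark samples. 2 other genes with a *crp-* symbol, *crp-42* and *crp-84*, were seen only in the study's tables of changed genes, at 8.68 to 17.8 FPKM in the dark, and are described apart.

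A cytoplasmic ribosome is built from 2 subunits, each made of ribosomal RNA and many proteins, most of them in equal numbers. The small subunit decodes the messenger RNA, and the large subunit joins the amino acids. In budding yeast the genes of these proteins are transcribed together, are among the most highly transcribed genes of a growing cell, and respond together to nutrients and stress, while a separate set of ribosome biogenesis genes encodes the factors that assemble the particle.

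All samples were mycelium of the wild-type strain FGSC2489, from liquid cultures kept at 25 degrees without light for 24 hr. Cultures were harvested in the dark or after 15, 60, 120 or 240 min of white light of 1200 lux, with 2 replicate cultures at each of the 5 time points and 10 samples in all. The messenger RNA of replicate 1 was captured on oligo-dT cellulose and that of replicate 2 with a magnetic bead kit. Replicate 2 was sequenced less deeply, so replicate number, capture method and depth cannot be told apart. The photoreceptor gene *vvd* was at 4.52 and 2.18 FPKM in the dark and at 537 and 293 at 15 min, and *frq* and *al-1* were also higher at every light time point than in the dark sample of their replicate. The 240 min samples stood apart from each other. Across all genes tested R2 between the replicates (of log10 values) was 0.744 at 240 min and 0.954 to 0.966 at the other time points. Both genes of a short heat shock list moved with this split: NCU07232 (annotated heat shock protein 30) had 240 min values of 2199 and 30.9 FPKM in replicates 1 and 2, and NCU09420 (hsp20 family) of 1316 and 8.54. Their part in the *crp* values at 240 min was not tested. Conidiation genes were also higher in the light: *con-10* reached 284 and 691 FPKM at 60 min from 0.944 and 4.11 in the dark. The paper describes *con-10* as found through conidiation and as responsive to light. Whether the cultures changed developmental state was not tested.

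In the dark the *crp* genes were among the most abundant transcripts. Their median was 1532 FPKM in replicate 1 and 2935 in replicate 2, against 10.4 and 7.90 for all genes tested, a difference that the choice of members by dark level partly fixes. The 5 genes highest in the dark were *crp-7*, *crp-71*, *crp-51*, *crp-30* and *crp-63*. *crp-7* (NCU08627, no subunit stated) had 4804 and 10532 FPKM, *crp-71* (NCU00979, the acidic protein P2 of the stalk that binds translation factors) 2743 and 11081, and *crp-51* (NCU08389, L20) 5214 and 7626. *crp-30* (NCU09476, S25) had 3487 and 8204 FPKM, and *crp-63* (NCU00464, L32) 3649 and 6058. The order of the 5 differed between the replicates, so none can be given. The 3 lowest were *crp-73* (NCU06048, S30) with 429 and 566 FPKM, *crp-79* (NCU05275, annotated as a ubiquitin fusion protein) with 292 and 469, and *crp-75* (NCU01331, annotated as an snRNP and snoRNP protein, not as a ribosomal protein). The order of the 74 genes in the dark was kept well at 15 min within a replicate (Spearman rho of 0.977 and 0.976 over 74 genes). Between the replicates rho was 0.773 in the dark, 0.868 at 60 min and 0.445 at 240 min. These are correlations across genes, which are not independent replicates.

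**Figure D1:**
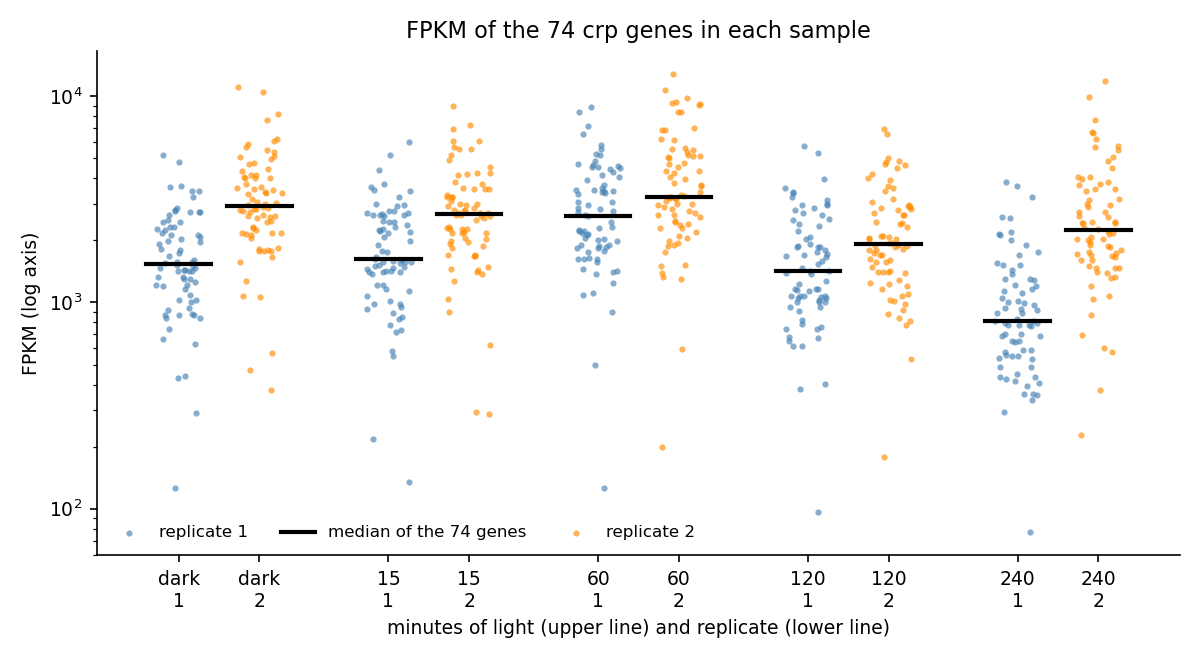
FPKM (log axis) of each of the 74 *crp* genes in each of the 10 samples, grouped by minutes of light and replicate, with a black bar at the median. The medians were 1532 and 2935 in the dark and 2631 and 3262 at 60 min, and in replicate 1 they went down to 815 at 240 min.

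On the scale as deposited, the genes followed a common course with a high point at 60 min and a lower level at 120 min. Scaled to the summed FPKM of the other genes, the median log2 ratio to the dark at 60 min was -0.17 instead of 0.44. As deposited, the median in replicate 1 was 1618, 2631, 1416 and 815 FPKM after 15, 60, 120 and 240 min. In replicate 2 it was 2680.2, 3262, 1924 and 2240.4. Against the dark sample of its own replicate, the median gene was at 1.10-, 1.64-, 0.916- and 0.527-fold in replicate 1 and at 0.882-, 1.18-, 0.661- and 0.820-fold in replicate 2. The size of the 60 min difference from the dark thus depended on the replicate. The step from 60 to 120 min did not: it was 0.561-fold in replicate 1 and 0.557-fold in replicate 2. Over the same step the median of all genes tested was within 0.019 of no change on the log2 scale in both replicates.

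**Figure D2:**
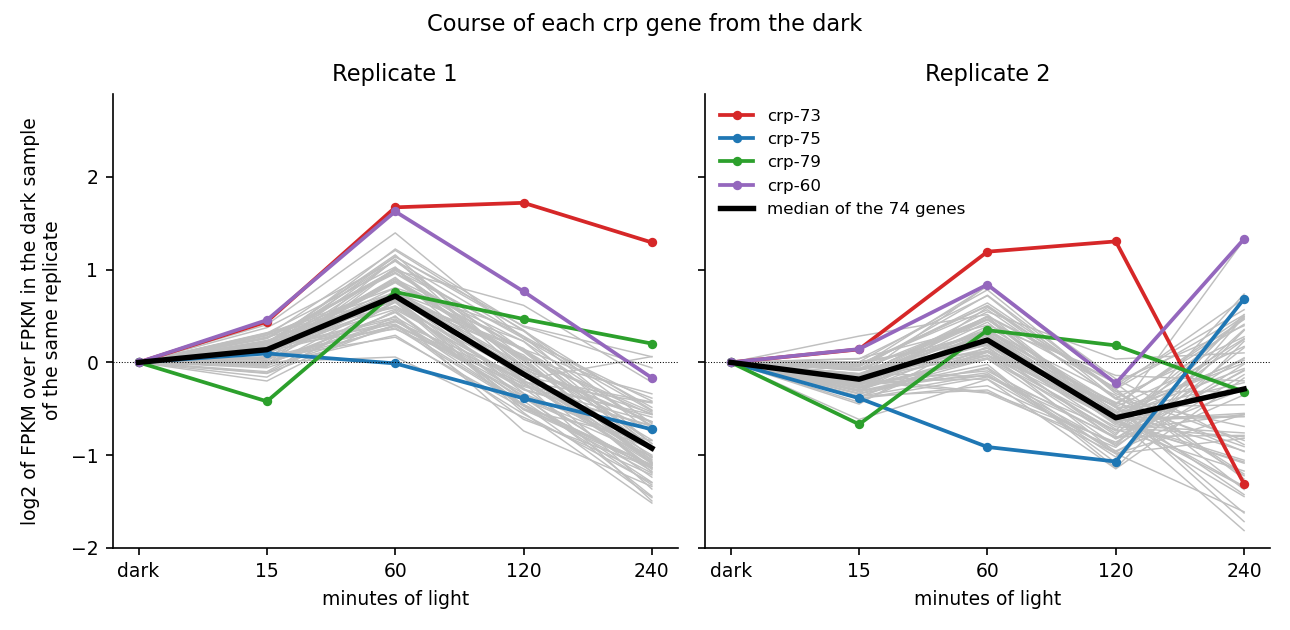
Log2 of the FPKM of each *crp* gene over the dark sample of the same replicate, by minutes of light (evenly spaced positions, not to scale), for replicates 1 and 2. Grey lines are single genes, the black line is their median, and 4 genes with unusual courses are coloured. 73 of the 74 lines go down from 60 to 120 min in both panels, and *crp-73* (red) does not.

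The first question was whether light moved these genes away from their dark level. limma, fitted to log2(FPKM + 1) of all 7688 genes and called at an adjusted p of 0.2 or less, called 0 of the 74 at any light time point. Of all genes tested it called 1.78, 6.23, 4.96 and 1.38% at 15, 60, 120 and 240 min. An unadjusted p under 0.05 was reached by 0, 1, 1 and 10 of the 74 at these time points. The smallest adjusted p of a *crp* gene from limma was 0.664, 0.417, 0.382 and 0.214 in the same order. This fit has no term for the replicate and counts the difference between the replicates as error. By the paper's methods each replicate number had its own way of capturing messenger RNA, so the number was also used as a block. With the replicate number as a block limma called 1 gene as lower at 15 min and 17 as higher at 60 min. It called 1 as higher and 4 as lower at 120 min, and 29 as lower at 240 min. Of all genes the same fit called 8.32% as lower after 15 min and 14.4% as higher after 60 min. After 120 min it called 11.6% as higher and 19.5% as lower, and after 240 min 15.0% as lower. The calls also depended on the 240 min libraries. Without replicate 1 of 240 min and without a block limma called 8, 6 and 13 of the 74 at 60, 120 and 240 min, against 36.2, 33.3 and 36.3% of all genes. Without replicate 2 of 240 min it called 8, 6 and 47, against 34.5, 31.8 and 25.6%, while leaving out any of the other 8 libraries gave 0 at each of these.

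At 15 min the genes were near the dark level on the scale as deposited. 8 of the 74 were higher in both replicates and 14 were lower in both, against 35.1% and 44.8% of all genes tested. The replicates pointed apart, with 60 genes higher in replicate 1 and 66 lower in replicate 2. The spread among the genes was small, with an SD of log2 ratios of 0.151 and 0.162 against 0.594 and 0.631 over all genes tested. In the dark the members had medians of 1532 and 2935 FPKM, against 10.4 and 7.90 for all genes tested. No SD was computed for genes of like level, so whether the small spread is particular to the members was not tested. The count depended on the scale. Each sample was also scaled to the summed FPKM of all genes outside the members. Then 52 of the 74 were lower in both replicates, against 57.6% of all genes. The median log2 change of the members was then -0.23 instead of -0.08. Scaled to the median FPKM of the genes tested, 12 were higher in both, against 38.8%, and 6 lower in both, against 39.9%. As deposited, 2 of the 74 had both 15 min samples above both dark samples, against 16.3% of all genes, and 1 had both below, against 21.3%. Above were *crp-43* (NCU08964, L10, a protein that joins the large subunit late in its assembly in yeast) and *crp-73*, and below was *crp-13* (NCU09475, S5). The 3 lowest log2 changes were those of *crp-79* (-0.54), *crp-71* (-0.33) and *crp-34* (-0.21), and the 3 highest those of *crp-72* (0.34), *crp-60* (0.30) and *crp-73* (0.29). *crp-79* was at 0.747- and 0.630-fold. It was called as lower only with the replicate block, with a log2 change of -0.54, an SE of 0.22 and an adjusted p of 0.184 from limma.

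At 60 min 58 of the 74 were higher than in the dark in both replicates, against 38.2% of all genes tested. Lower in both was 1, against 47.5%. 26 had both 60 min samples above both dark samples, against 25.4% of all genes. The 17 genes that rose in the fit with the replicate block had log2 changes of 0.50 to 0.96. 10 of them were among the 39 large subunit genes, 2 among the 22 small subunit genes and 5 among the 13 without a stated subunit. Without the 240 min samples and without a block, limma called 8 of the 74 as higher, against 15.9% of all genes. *crp-85* (NCU07562, L43) is an example of a gene that rose with the block. It had 2451, 2664, 5256, 2982 and 1751 FPKM in replicate 1 in the dark and at 15, 60, 120 and 240 min, and 5097, 4560.2, 9054, 4508 and 2757 in replicate 2. Its 60 min samples lay above both dark samples, with a log2 change of 0.96, an SE of 0.20 and an adjusted p of 0.0404 from limma with the block, and of 0.542 without it. *crp-29* (NCU07182, S24) was tighter between the replicates, with 845 and 1079.7 FPKM in the dark and 1865 and 1910.2 at 60 min. Its log2 change of 0.98 was called when the 240 min samples were left out (adjusted p of 0.0303 from limma) and not with them (0.505). At the other end, *crp-37* (NCU06843, L3, which lies near the peptidyl transferase centre) had 1516 and 1667 FPKM in the dark and 1578 and 1324 at 60 min, a difference smaller than the spread between the replicates. *crp-53* (NCU01948, annotated as ribosomal protein Srp1) had 1221 and 2563 FPKM in the dark and 1625 and 2053 at 60 min, so its replicates pointed apart.

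At 120 min the genes were back at or under the dark level. 46 of the 74 were lower than in the dark in both replicates, against 47.2% of all genes tested. Scaled to the summed FPKM of the other genes 70 were lower in both, against 61.0%. The median log2 change of the members was then -0.70 instead of -0.43. Scaled to the median FPKM of the genes tested, 35 were lower in both, against 40.3%. The median gene was then at 1.02-fold of the dark in replicate 1 and at 0.717-fold in replicate 2. As deposited, 3 were higher in both, namely *crp-6* (S27), *crp-73* and *crp-79*, against 39.3% of all genes. The gene that rose with the replicate block was *crp-73*. The 4 genes that fell with the replicate block were *crp-9* (NCU06047, S2), *crp-10* (NCU00489), *crp-13* and *crp-15* (NCU00258), with log2 changes of -0.62 to -0.51. *crp-13* had 2734 and 2986 FPKM in the dark, 3349 and 3676 at 60 min, and 1858 and 1871 at 120 min. Its 3 pairs of values did not overlap. The 3 lowest log2 changes were those of *crp-71* (-0.83), *crp-20* (NCU06432, S12, -0.80) and *crp-26* (NCU06892, S20, -0.76), with an SE of 0.77 to 1.03, and these were not called with or without the block. *crp-20* had 2180.3 and 4433 FPKM in the dark and 1531 and 2095 at 120 min, and *crp-26* had 916 and 2171 in the dark and 649 and 1070.0 at 120 min. Both 120 min samples of *crp-20* were below both dark samples, while those of *crp-26* overlapped with them.

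The step from 60 to 120 min was alike in size and direction across the genes and in both replicates. 73 of the 74 were lower at 120 than at 60 min in both replicates, against 37.6% of all genes tested, and 59 had both 120 min samples below both 60 min samples, against 19.9%. The exception was *crp-73*, with 1368 and 1296 FPKM at 60 min and 1415 and 1399.6 at 120 min. Its log2 change was 0.08 as deposited, with an SE of 0.62 and an adjusted p of 0.992 from limma, and -0.0058 when scaled to the median FPKM of the genes tested. Single genes ranged from 0.423-fold (*crp-25*, NCU07826, S19) to 1.03-fold (*crp-73*) in replicate 1, and from 0.460-fold (*crp-2*, NCU07830) to 1.08-fold (*crp-73*) in replicate 2, and the SD of the log2 ratios was 0.239 and 0.227 against 0.456 and 0.473 over all genes tested. Here too the SD was not set against that of genes of like level. limma without a block called 0 of the 74 and 0 of all 7688 genes between these time points (0.00%). An unadjusted p under 0.05 was reached by 4 of the 74. With the replicate block 30 of the 74 fell and 0 rose, against 4.96% of all genes called as lower. Without the 240 min samples and without a block 16 fell, against 4.63%. Without replicate 1 of 240 min alone 26 fell and without replicate 2 of 240 min alone 16 fell, against 7.74% and 4.55%. With the block and without both 240 min samples, a fit chosen after the data were seen, 72 fell and 0 rose, against 27.3%. *crp-2* had 4572 and 6188 FPKM at 60 min and 2550.0 and 2849 at 120 min. Both later samples lay below both earlier ones, and its log2 change of -0.98 had an adjusted p of 0.0883 from limma with the block and 0.616 without it. For *crp-7*, the gene with the highest mean of the 2 dark samples, the same values were 8847 and 12858 FPKM at 60 min and 5298 and 6915 at 120 min, with adjusted p of 0.243 and 0.779. The step up from 15 to 60 min was less even: 70 of the 74 were higher in both replicates, against 37.7% of all genes, at a median of 1.55- and 1.35-fold, and the block fit called 12 as higher, against 6.54%.

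FPKM is relative to the mapped fragments of a sample and to transcript length, so a share of summed FPKM is not a share of fragments. The *crp* genes held a large part of the summed FPKM. Their summed FPKM made up 23.2, 22.3, 23.8, 18.2 and 14.0% of the summed FPKM of all genes in replicate 1 along the course, and 34.7, 29.8, 30.6, 23.8 and 37.0% in replicate 2. The share at 60 min was thus close to that in the dark in replicate 1 and under it in replicate 2. The summed FPKM of all other genes was also higher at 60 min, 1.64-fold in replicate 1 and 1.47-fold in replicate 2, although the median gene was not. When each sample was scaled to this sum, the median *crp* gene at 60 min was at 1.00- and 0.804-fold of the dark, 11 of the 74 were higher in both replicates (against 16.7% of all genes) and 35 were lower in both (against 72.2%). With samples scaled to the median FPKM of the genes tested it was 1.93- and 1.37-fold. The level at 60 min was thus above the dark as deposited and when scaled to the median, and not when scaled to the sum. The median log2 change of all genes tested at 60 min was -0.09 as deposited, -0.59 when scaled to the sum and 0.09 when scaled to the median. The step from 60 to 120 min kept its direction under these scalings: it was 0.700- and 0.711-fold when scaled to the sum, with 71 of the 74 lower in both replicates against 17.0% of all genes, and 0.531- and 0.523-fold when scaled to the median, under which *crp-73* was at 0.979- and 1.01-fold. In a bulk sample a lower share of a transcript and fewer cells that hold it cannot be told apart, nor can less RNA of these genes and more RNA of the others.

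**Figure D3:**
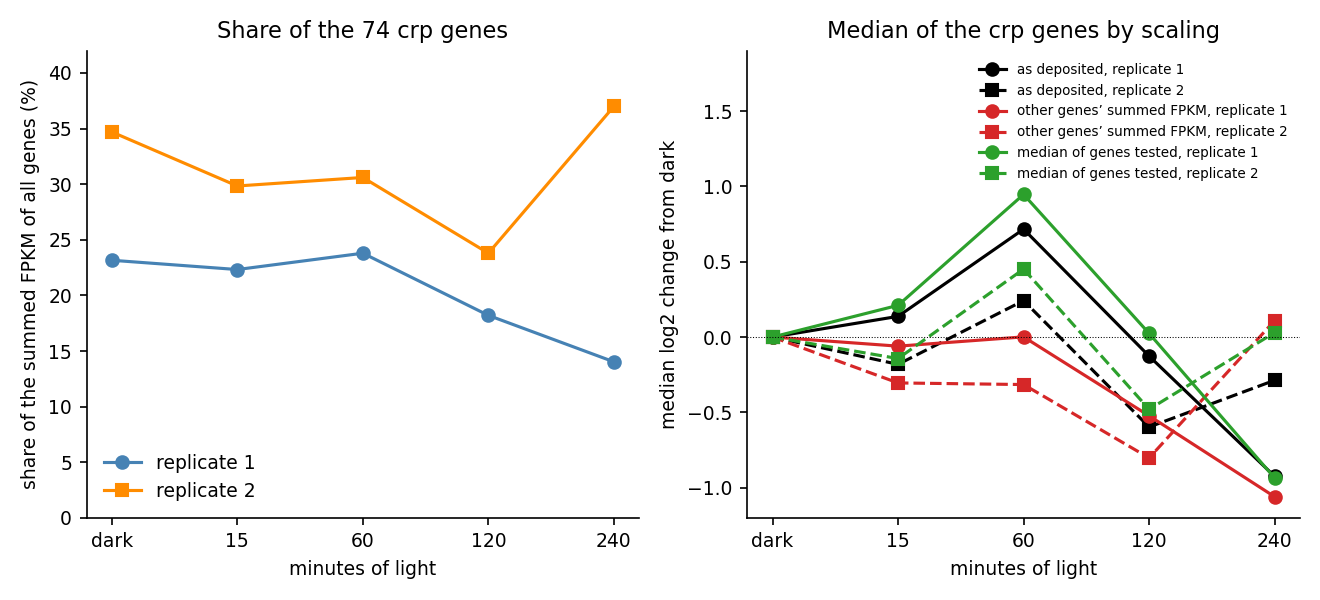
Left, the summed FPKM of the 74 *crp* genes as a percent of the summed FPKM of all genes, by minutes of light, for each replicate. Right, the median log2 change of the 74 genes from the dark sample of the same replicate with FPKM as deposited (black), scaled to the summed FPKM of all other genes (red) or to the median of the genes tested (green). The black and green lines have a peak at 60 min and the red lines do not, and all 6 lines go down from 60 to 120 min. Time points are evenly spaced, not to scale.

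Large and small subunit genes were close to each other at 60 and 120 min, and their medians were farther apart at 240 min in replicate 2. At 60 min the median of the 39 large subunit genes was 1.67- and 1.24-fold of the dark and that of the 22 small subunit genes 1.62- and 1.12-fold. At 120 min these were 0.968- and 0.699-fold for the large and 0.869- and 0.647-fold for the small subunit. At these time points the 2 medians differed by less than the 2 replicates of either subunit did. The 13 genes without a stated subunit were at 1.63- and 1.22-fold at 60 min and 0.881- and 0.650-fold at 120 min. At 240 min the medians in replicate 1 were 0.524-fold for the large subunit, 0.526-fold for the small subunit and 0.533-fold for the rest. In replicate 2 they were 0.987-, 0.772- and 0.558-fold, with 18 of 39, 7 of 22 and 2 of 13 genes above the dark level. At 240 min too the large and small subunit medians differed by less than the 2 replicates of either did. The quartiles of the log2 changes in replicate 2 overlapped, at -0.75 to 0.40 for the large and -0.98 to 0.05 for the small subunit. The difference between the subunits was not tested.

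The replicates differed by gene, and the order of the gaps was much the same from the dark to 120 min while their size was smaller in the light. In replicate 2 the median *crp* gene was at 1.88-fold of replicate 1 in the dark and at 1.45-, 1.28-, 1.36- and 2.61-fold of it along the light course, while the median of all genes was lower in replicate 2 at each time point (log2 difference of -0.26 to -0.47). All 74 were higher in replicate 2 in the dark. The gap in the dark was widest for *crp-60* (NCU00315, L29), at 4.29-fold in the dark and 2.16-fold at 120 min, and narrowest in the dark for *crp-8* (S1), at 1.07-fold. Gene by gene, the log2 gaps of 2 time points correlated with r of 0.856 to 0.943 among the dark and the first 3 light time points (74 genes). With 240 min r was 0.349 to 0.520. All samples of a replicate number share its method of messenger RNA capture, and the part of the capture in the gaps was not tested. *crp-60* had 1093, 1499.5, 3377, 1857 and 973 FPKM in replicate 1 and 4687, 5177, 8386, 4006 and 11800.4 in replicate 2. Its levels in the replicates did not overlap, and within a replicate it was at 3.09- and 1.79-fold of the dark at 60 min. *crp-72* (NCU03302, L36) had a like gap, with 627, 832, 1651, 748 and 436 FPKM against 2660.4, 3238, 3806, 1790.2 and 6652.

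**Figure D4:**
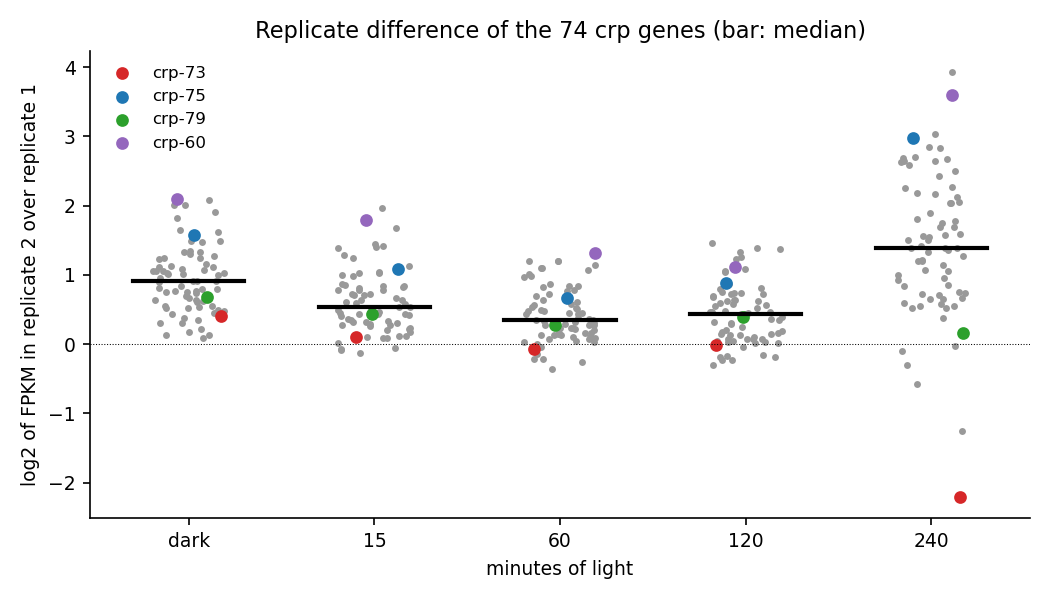
Log2 of the FPKM in replicate 2 over that in replicate 1 for each of the 74 *crp* genes at each time point, with a bar at the median and 4 genes coloured. The medians lie above 0 throughout (1.88-fold in the dark, 1.28-fold at 60 min and 2.61-fold at 240 min), and at 240 min the genes spread from 0.217-fold (*crp-73*) to 15.2-fold (*crp-72*).

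At 240 min the 2 replicates held different pictures. In replicate 1 70 of the 74 were below the dark level, from 0.349-fold (*crp-14*, S6) to 2.45-fold (*crp-73*), with an SD of log2 ratios of 0.459. At this time point the scaling turned the direction in replicate 2: the median was 0.480- and 1.08-fold of the dark when scaled to the sum of the other genes and 0.523- and 1.02-fold when scaled to the median. As deposited, in replicate 2 47 genes were below the dark level, from 0.284-fold (*crp-7*) to 2.52-fold (*crp-60*), with an SD of 0.749. 44 genes were lower than in the dark in both replicates, against 32.0% of all genes tested. Higher in both was 1, *crp-68* (NCU00706, L44), against 15.2%. The 29 genes called as lower with the block had log2 changes of -1.33 to -0.69. *crp-10* had the lowest p. Its values were 1218, 1215, 1773, 912 and 487 FPKM in replicate 1 and 1776, 1675, 2457, 1164 and 698 in replicate 2, so that both 240 min samples were below all 8 others. Its log2 change was -1.33, with an SE of 0.40 and an adjusted p of 0.214 from limma, and with an SE of 0.19 and an adjusted p of 0.0176 with the block. The next lowest log2 changes were those of *crp-15* (-1.28) and *crp-24* (NCU00475, S18, -1.21). *crp-24* had 2735 and 5146 FPKM in the dark and 1299 and 2035 at 240 min, with both later samples below both dark samples and an adjusted p of 0.334 from limma and 0.026 with the block. *crp-34* (NCU09089, annotated as a hypothetical protein) was near its dark level in replicate 1, with 3673 FPKM in the dark and 3837 at 240 min. In replicate 2 it was lower, with 4952 in the dark and 1607 at 240 min.

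*crp-73* did not follow the course of the other members. It encodes S30, which in mammals is made as a fusion with a ubiquitin-like protein. It had 429, 582, 1368, 1415 and 1052 FPKM in replicate 1 and 566, 624, 1296, 1399.6 and 228 in replicate 2. Up to 120 min the replicates were close, and both samples at 60 and at 120 min lay above all samples in the dark and at 15 min. The log2 changes from the dark were 1.43 at 60 min and 1.51 at 120 min, each with an SE of 0.62. The adjusted p values from limma were 0.417 and 0.382, with the block 0.205 and 0.185, and without the 240 min samples 0.0092 and 0.0079. It was thus called as higher at 120 min with the block and at both time points without the 240 min samples, which gave an SE of 0.20. Scaled to the summed FPKM of the other genes, its log2 changes were 0.80 and 1.21. Over 10 samples its log2 values had r of -0.09 with the median of the 74, where 61 of the 74 had r above 0.8 and 32 above 0.9. Its neighbour in locus order, *crp-9*, had 1472, 1473, 1907, 1062 and 643 FPKM in replicate 1 and 2763, 2286, 2908, 1789 and 1329.6 in replicate 2. At 120 min *crp-9* was at 0.721- and 0.648-fold of the dark and *crp-73* at 3.30- and 2.47-fold, so the 2 genes differed in direction in both replicates. The heat shock gene NCU07232 had 359.9, 361, 3058, 3788 and 2199 FPKM in replicate 1 and 226, 237, 2595, 2698 and 30.9 in replicate 2. Like *crp-73*, it was high at 60 and 120 min in both replicates and at 240 min in replicate 1, and low at 240 min in replicate 2. The comparison with this gene was chosen after its values were seen, and the 10 points share the libraries.

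**Figure D5:**
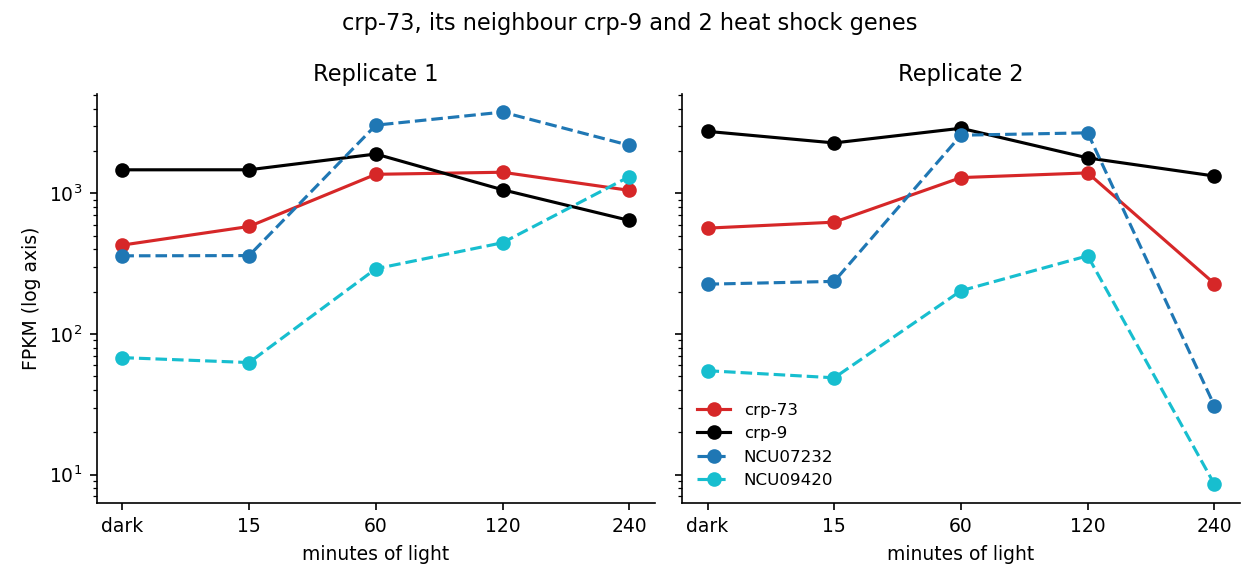
FPKM (log axis) of *crp-73*, of its neighbour *crp-9* and of the heat shock genes NCU07232 and NCU09420 by minutes of light (evenly spaced positions, not to scale), for replicates 1 and 2. *crp-73* goes from 429 to 1415 FPKM by 120 min in replicate 1 and from 566 to 1399.6 in replicate 2, where *crp-9* goes from 1472 to 1062 and from 2763 to 1789.

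After *crp-73*, the members farthest from the median course were *crp-60*, *crp-72*, *crp-75*, *crp-34* and *crp-79*, by root mean square distance over 4 light time points and 2 replicates. *crp-75* was the 1 gene that was lower at 60 min than in the dark in both replicates. It had 127, 135, 126, 96.8 and 76.8 FPKM in replicate 1 and 376, 287, 199.6, 179 and 604 in replicate 2. Its annotation and level set it apart from the other members, and its difference at 60 min was 0.992-fold in replicate 1 and 0.531-fold in replicate 2. *crp-79* had 292, 218, 495, 404 and 336 FPKM in replicate 1 and 469, 295, 596, 532 and 377 in replicate 2. It was lowest at 15 min, highest at 60 min and still above the dark level at 120 min in both. *crp-79* is annotated as a ubiquitin fusion, the symbol of *ubi::crp-6* names one, and L40, which *crp-80* encodes, is made as one in yeast and mammals. Reads of the ubiquitin part can be shared between such genes, so the values of these 3 may be uncertain. By the paper's methods a correction for multiple reads was enabled, and how far sharing still affects these values was not tested. Without the 240 min samples *crp-34* ranked 47 of 74 in distance, and *crp-73* and *crp-60* kept ranks 1 and 2.

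The *crp* genes lie on 7 chromosomes, 23 of them on chromosome I. In the RefSeq gene order of *N. crassa* 8 pairs of ribosomal protein genes were next to each other. In 7 of these both neighbours were lower at 120 than at 60 min in both replicates. At 60 min *crp-61* (NCU08963, L30) and *crp-43* were at 1.94- and 1.75-fold of the dark in replicate 1 and at 1.65- and 1.32-fold in replicate 2. The exception was the pair of *crp-73* and *crp-9*.

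5 ribosomal protein genes carry other symbols: *cyh-2*, *un-16*, *un-25*, *po* (which encodes P0, the base of the stalk) and *ubi::crp-6*. Their median log2 change was 0.66 and 0.27 at 60 min and -0.28 and -0.54 at 120 min. All 5 were lower at 120 than at 60 min in both replicates, against 37.6% of all genes. *po* had 1565, 1576, 1517, 785 and 532 FPKM in replicate 1 and 2347, 1881, 1780.3, 1045 and 1684 in replicate 2, so it was not above the dark level at 60 min. With the block limma called 1 of the 5 as higher at 60 min and 2 as lower at 120 min, against 14.4% and 19.5% of all genes.

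Genes for assembling and using ribosomes did not share the 60 min level. Of 13 ribosome biogenesis (*rbg*) genes, 12 were lower than in the dark at 60 min in both replicates, against 47.5% of all genes tested. The median log2 change of the 13 was -1.19 and -1.33. limma called 5 of the 13 as lower at 60 min and 3 at 120 min, against 3.55% and 3.59% of all genes. With the block it called 11 at each, against 22.1% and 19.5%. From 60 to 120 min their median was 0.07 and 0.17, where that of the *crp* genes was -0.83 and -0.84. These *rbg* genes were taken from tables that the study made on these samples, so their direction is not independent evidence. Of 57 mitochondrial ribosomal protein genes, 33 were lower at 60 min in both replicates and 53 at 120 min, against 47.5% and 47.2% of all genes. At 60 min 12 of the 57 were higher in both, against 38.2%. The median log2 change of the 57 at 120 min was -0.93 and -0.84. limma called 6 as lower at 120 min without a block and 31 with it, against 3.59% and 19.5%. From 60 to 120 min 56 of the 57 were lower in both replicates, against 37.6% of all genes, at a median of -0.63 and -0.58. 29 translation factor genes were at -0.43 and -0.59 at 60 min, from *eef3* (an elongation factor of fungi, mean log2 change -1.40) to *eif6* (which keeps the subunits apart during assembly, 1.02). limma called 0 of the 29 at 60 min, against 6.23% of all genes, and 4 had an unadjusted p under 0.05. With the block it called 2 as higher and 10 as lower, against 14.4% and 22.1%. *crp-42* (NCU02477, annotated as the ribosome biogenesis protein Sqt1) and *crp-84* (NCU05235, annotated RLP24, an assembly factor) were at 0.256- to 0.306-fold of the dark at 60 min. Both carry a *crp-* symbol but were lower than in the dark at 60 and 120 min, like most of the *rbg* genes. Both were seen only because the study listed them as changed.

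The genes most like the median of the 74 over 10 samples, outside the members, were NCU11755 and NCU03997 (hypothetical proteins), NCU10226 (mmf1), *mrp-12* (a mitochondrial ribosomal protein) and *rap-1* (NCU03393, a ribosome-associated protein), with Pearson r of 0.976, 0.973, 0.971, 0.968 and 0.967. Of 7614 other genes, 49 had r above 0.9. The r is of log2(FPKM + 1) over both replicates, so the shared difference between the replicates can enter it. Its part in the r was not tested.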

How the data were processed

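RNA-seq of 10 samples was analysed from the deposited FPKM values, which the authors computed with Cuffdiff from reads aligned with TopHat2 and normalized by the length of the transcript and the mapped fragments of the library, 1 value per gene and sample. The submitters' processing notes name CASAVA 1.8.2, TopHat2 2.0.5, Cufflinks and Cuffdiff. Counts and depth were not used here, and the precision of a value is given by the spread between the replicates. Of 45 pairs of samples 0 held identical values. The replicates are separate cultures by the study's methods.

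limma 3.58.1 in R 4.3.3 was fitted to log2(FPKM + 1) of the 7688 genes that passed the filter on low values. The model had 1 mean per time point and a variance trend, with 5 residual and 3.50 prior degrees of freedom. P-values were adjusted by Benjamini and Hochberg over all genes and the 4 comparisons with the dark, and separately over the 3 comparisons of successive light time points. The threshold was 0.2. Log2 changes from limma are on the log2(FPKM + 1) scale. Folds per replicate are ratios of FPKM. Other fits used the replicate number as a block, other samples, pseudocounts, filters and scalings. Same-numbered samples deviated together from the means of their time points. The correlations across genes were 0.760 to 0.841 in 6 pairs of time points without 240 min and 0.334 to 0.412 in 4 pairs with it. By the paper's methods each number had its own way of capturing messenger RNA. The fits were also run on simulated data that gave every gene and sample the same noise. The simulation had no split of the 240 min samples, so it does not bear on calls that depend on them.

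Named genes were the 5 highest and 3 lowest in the dark, the 3 highest and 3 lowest changes at each light time point, the 6 farthest from the median course, adjacent genes, the 5 other genes most correlated with the median, and the genes of the short lists (adjacent genes as counts, with 2 pairs by value), with others as examples chosen after their values were seen. The members, lists and tests were chosen with earlier results of these data known. Gene order came from the RefSeq table of another assembly than the one the authors used, so no coordinates are given, and all 74 loci matched. The values were computed with Python 3.11.15, pandas 2.3.3 and numpy 2.4.6.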

Additional observations from a re-analysis of the deposited data

How the results depend on the processing

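All counts here are of the 74 genes called at an adjusted p of 0.2 or less by limma, and the percents are of all genes tested that the same fit called in either direction. With the replicate block the counts were 1, 17, 5 and 29 at 15, 60, 120 and 240 min against the dark (15.2, 36.5, 31.2 and 20.1%), and 12, 30 and 15 for 60 against 15, 120 against 60 and 240 against 120 min (18.7, 8.51 and 19.9%), where the fit without a block gave 0 for each. Without the 240 min samples they were 8 and 6 at 60 and 120 min (34.8 and 32.2%), 5 for 60 against 15 min and 16 for 120 against 60 min (13.7 and 5.42%). With the block and without the 240 min samples, which was chosen after the data were seen, they were 2, 61 and 49 at 15, 60 and 120 min, 62 for 60 against 15 min and 72 for 120 against 60 min. This fit called most genes (61.1, 78.0, 74.4, 68.7 and 56.0%), so its counts say little about the members in particular. With samples also scaled to the summed FPKM of the other genes these were 34, 39, 70, 31 and 70 (65.1, 83.4, 77.0, 77.1 and 68.0%), of which 34, 30, 69, 10 and 69 were lower. With samples also scaled to the median of the genes tested they were 2, 71, 35, 69 and 72 (59.9, 77.2, 73.9, 67.9 and 55.6%), of which 1, 0, 32, 0 and 72 were lower. At 240 min a filter at a mean FPKM of 10 gave 1 (2.62%) and quantile normalization gave 4 (2.77%). Leaving out 1 sample at a time gave 0 to 8, 0 to 6 and 0 to 47 at 60, 120 and 240 min, 0 to 7 for 60 against 15 min, 0 to 26 for 120 against 60 min and 0 to 18 for 240 against 120 min, and each count other than 0 came from leaving out a 240 min sample. A group of 1 sample was then assumed to vary like the others. The other alternatives gave 0.

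The median log2 ratio of mean FPKM was 0.44 at 60 min against the dark, -0.17 when scaled to the sum of the other genes and -0.19 with quantile normalization, which also compresses the highest values. At 120 min it was -0.43, and -0.70 when scaled to the sum and -0.33 when scaled to the median. At 240 min it was -0.45, and -0.92 in replicate 1 on its own. For 120 against 60 min it was -0.84, and -0.92 scaled to the median, -0.50 scaled to the sum, -0.20 with quantile normalization and -0.84 in replicate 2 on its own. Leaving out 1 sample gave -0.45 to 0.47, 0.086 to 0.92, -0.78 to 0.14 and -1.47 to -0.042 at the 4 light time points and -1.06 to -0.60 for 120 against 60 min. The causes were not tested.

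Some single genes turned direction, none of them called before or after. With scaling to the median *crp-37* was at 0.083 at 60 min and *crp-73* at -0.0058 for 120 against 60 min. With scaling to the sum *crp-53* was at -0.59 at 60 min, and *crp-75* at 0.068 and *crp-79* at 0.11 for 120 against 60 min. With 1 sample left out the ranges were -0.43 to 0.0018 (*crp-34*), -1.34 to 0.68 (*crp-71*), -0.75 to 1.35 (*crp-60*) and -0.70 to 1.39 (*crp-72*) at 15 min. At 60 min they were -1.24 to 0.32 (*crp-75*) and -0.49 to 0.58 (*crp-53*), and at 120 min -1.83 to 0.18 (*crp-71*), -0.015 to 0.66 (*crp-79*) and -0.18 to 0.83 (*crp-6*). At 240 min they were -0.31 to 0.89 (*crp-68*), -1.56 to 2.36 (*crp-72*) and -1.22 to 2.38 (*crp-60*), and for 120 against 60 min -0.70 to 0.18 (*crp-75*).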

Other observations

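The genes whose log2 values over the 10 samples were most like those of *crp-73* were listed after its values were seen. They were NCU04174, NCU02765 (annotated as an RNA binding protein), NCU08095, NCU00247 and NCU09005, with Pearson r of 0.989, 0.989, 0.988, 0.985 and 0.985, and none is a ribosomal protein by the annotation used here. NCU02765 had 347, 559, 2175, 1879 and 1077 FPKM in replicate 1 in the dark and at 15, 60, 120 and 240 min, and 392, 699, 2023, 1822 and 131 in replicate 2. It was high at 60 and 120 min in both replicates and low at 240 min in replicate 2 alone. The heat shock genes NCU07232 and NCU09420 had r of 0.972 and 0.882 with *crp-73*. The points share their libraries, and the 240 min samples weigh in each r.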
